A study of Mus musculus with 2 samples.

Results

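The collagen genes are described here as they read on 2 oligonucleotide arrays of mouse liver with and without MMP-14, a membrane-anchored metalloproteinase that cleaves fibrillar collagen. Members were all array genes whose symbol is Col, a number, a and a number, older symbols included. They came to 38 genes with 39 probes, among 16390 named genes. By type of assembly, 11 are fibrillar, 5 belong to basement membranes, 5 to microfibrils and 17 to other classes. The RefSeq table used for names lists 44 such genes, and Col4a3, Col4a4, Col6a5, Col8a1, Col18a1 and Col28a1 were not matched to a probe and were not analysed here.

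Each array set RNA of MMP-14 KO mice, labelled with Cy3, against wild-type RNA labelled with Cy5. The first carried cells sorted from fetal liver as Dlk positive and negative for CD45, CD71 and Ter119, dated E14 by the labels and E14.5 by the design text, with 100000 cells from 3 pooled livers of each genotype. On the other was whole-liver RNA mixed from 2 livers per genotype, dated postnatal day 1 (P1) by the labels and E18.5 by the design text. These dates conflict, and the label's name, P1 liver array, is used. The labels state neither the strain nor how the allele was made. There was 1 array per comparison and no dye swap, so no value carries an error between animals, no test was possible, and a probe's dye effect cannot be told apart from genotype.

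Collagens are trimers of chains that wind into a triple helix, and each gene encodes 1 kind of chain. Fibrillar collagens are secreted as procollagens, trimmed by propeptidases and cross-linked into fibrils, whereas type IV forms the network of basement membranes and type VI forms beaded microfibrils. In liver, stellate cells and portal fibroblasts are known as main sources of fibrillar collagen, and type IV lies along sinusoids and ducts.

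Promoters of the 4 genes with the lowest P1 ratios among those detectable in both channels are shown, as reference sequence beside the values that follow. RefSeq, build GRCm38.p6, supplied a promoter for 30 of the 38 members. Each is written 5′ to 3′ on the gene's strand and ends just before the annotated start, except that of Col4a2, shown for 30 bases from -36 to -7 only, since Col4a1 is annotated to start past the Col4a2 start on the opposite strand. Capitals mark a match to CCAAT or to TATAAA, searched on both strands together with GGGCGG. The Col1a2 sequence is chr6:4505468-4505617 on the plus strand, that of Col3a1 is chr1:45311388-45311537 on the plus strand, that of Col6a1 is chr10:76726045-76726194 on the minus strand, and that of Col4a2 is chr8:11312769-11312798 on the plus strand.
Col1a2: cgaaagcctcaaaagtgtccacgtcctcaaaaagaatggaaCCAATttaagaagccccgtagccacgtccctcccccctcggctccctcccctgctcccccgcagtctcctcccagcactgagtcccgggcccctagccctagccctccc
Col3a1: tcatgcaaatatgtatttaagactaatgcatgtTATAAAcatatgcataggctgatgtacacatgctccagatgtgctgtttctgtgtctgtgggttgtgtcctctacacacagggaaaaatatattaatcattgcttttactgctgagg
Col6a1: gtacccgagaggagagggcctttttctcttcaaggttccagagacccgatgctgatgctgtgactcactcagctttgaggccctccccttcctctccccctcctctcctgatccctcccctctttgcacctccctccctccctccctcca
Col4a2: ctccCCAATttgttggcgctgccccctccc

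In these letters CCAAT began at -109 in Col1a2 and at -32 in Col4a2, and TATAAA began at -117 in Col3a1. None of the 3 motifs occurred in the 150 bases of Col6a1. Across 32851 RefSeq promoters, windows of 150 bases held CCAAT in 24.5%, TATAAA in 7.57% and GGGCGG in 28.6%. These matches are descriptions of letters, and no binding was measured. Col4a1 and Col4a2 lie head to head on opposite strands, and their annotated first bases overlap by 22 bases.

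A channel was called detectable above the mean plus 2 SD of blank spots. For wild type and knockout these thresholds were 44.3 and 85.1 on the E14 Dlk+ array, and 50.5 and 87.0 for P1 liver. The medians over all probes were 58.5 and 122 on the first array and 73.4 and 113 on the second, so raw signals of the 2 channels are not on 1 scale and the normalised ratio carries the comparison. All ratios given are log2 values, knockout over wild type, after loess, and a gene was called at 1.5-fold or more (log2 0.58) in a gene detectable in both channels. Probes of the same gene differed with an SD of 0.12 for E14 Dlk+ cells and 0.23 for P1 liver, over 139 genes each. Mmp14, the targeted gene, read 131 for wild type and 132 for knockout on the E14 Dlk+ array, a ratio of -1.13, and 161 and 104 on the P1 liver array, a ratio of -1.30. Using the local background in normexp gave Mmp14 ratios of -0.45 and -0.27. Whether its probe lies inside the deleted part is not known here, so the check on the labels is limited.

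The P1 wild-type RNA held lung markers. Of 15 lung epithelial markers, 15 were detectable for wild type and 10 for knockout, with summed normalised levels of 55936 and 1428 and a median ratio of -4.83 over the 10 detectable in both. Sftpc, a surfactant protein gene that defines lung epithelium, read 24038 and 187. On the E14 Dlk+ array 9 of the 15 were detectable in each channel, with sums of 1073 and 1064. Lung tissue holds collagens too, and the part of this RNA in the P1 collagen ratios was not tested. The liver markers Alb and Dlk1 were detectable in all channels. Alb read 37881 and 37592 on the E14 Dlk+ array and 54365 and 44636 on the P1 liver array. Such bright whole-number readings were treated as possible ceiling readings, and saturation was not tested. Dlk1 read 4971 and 11869 on the E14 Dlk+ array and 128 and 197 on the P1 liver array.

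On the P1 liver array collagen ratios leaned low. Of the 30 collagen genes detectable in both channels, 24 were below 0 and 6 above, with a median of -0.21. All 12715 such genes had a median of -0.00, and 6411 of them were below 0. Called lower by 1.5-fold or more were 9 collagens (Col1a2, Col3a1, Col5a1, Col5a2, Col4a2, Col4a5, Col6a1, Col13a1 and Col16a1), where 4.12% of all genes were called lower. None was called higher, where 2.84% of all genes were. At 2-fold or more, 5 collagens were lower (Col6a1, Col3a1, Col4a2, Col1a2 and Col5a2), against 1.45% of all genes. By the values in the authors' deposited table, 16 of the 30 were at least 1.5-fold lower (12.2% of all genes) and 1, Col2a1, was at least 1.5-fold higher (11.9%). By the same deposited table of the authors, 13 were at least 2-fold lower (5.03%). In bulk RNA, fewer cells of a type and less RNA per cell cannot be told apart.

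In E14 Dlk+ cells the collagens stood close to 0. Of 30 members detectable in both channels, 19 were above 0 and 11 below, with a median of 0.03. All 12705 such genes had a median of 0.01, and 6742 of them were above 0. The 3 members called higher were Col4a2, Col5a1 and Col14a1, where 0.307% of all genes were called higher. None was called lower, where 0.22% were. By the values in the authors' deposited table, 6 members were at least 1.5-fold higher (5.38% of all genes) and none lower (1.22%). With centring on the array median in place of loess, 9 members were at least 1.5-fold higher, but 24.8% of all genes were too: that setting moved the median of all genes to 0.28, and the collagen median of 0.20 lay 0.08 below it.

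**Figure D1:**
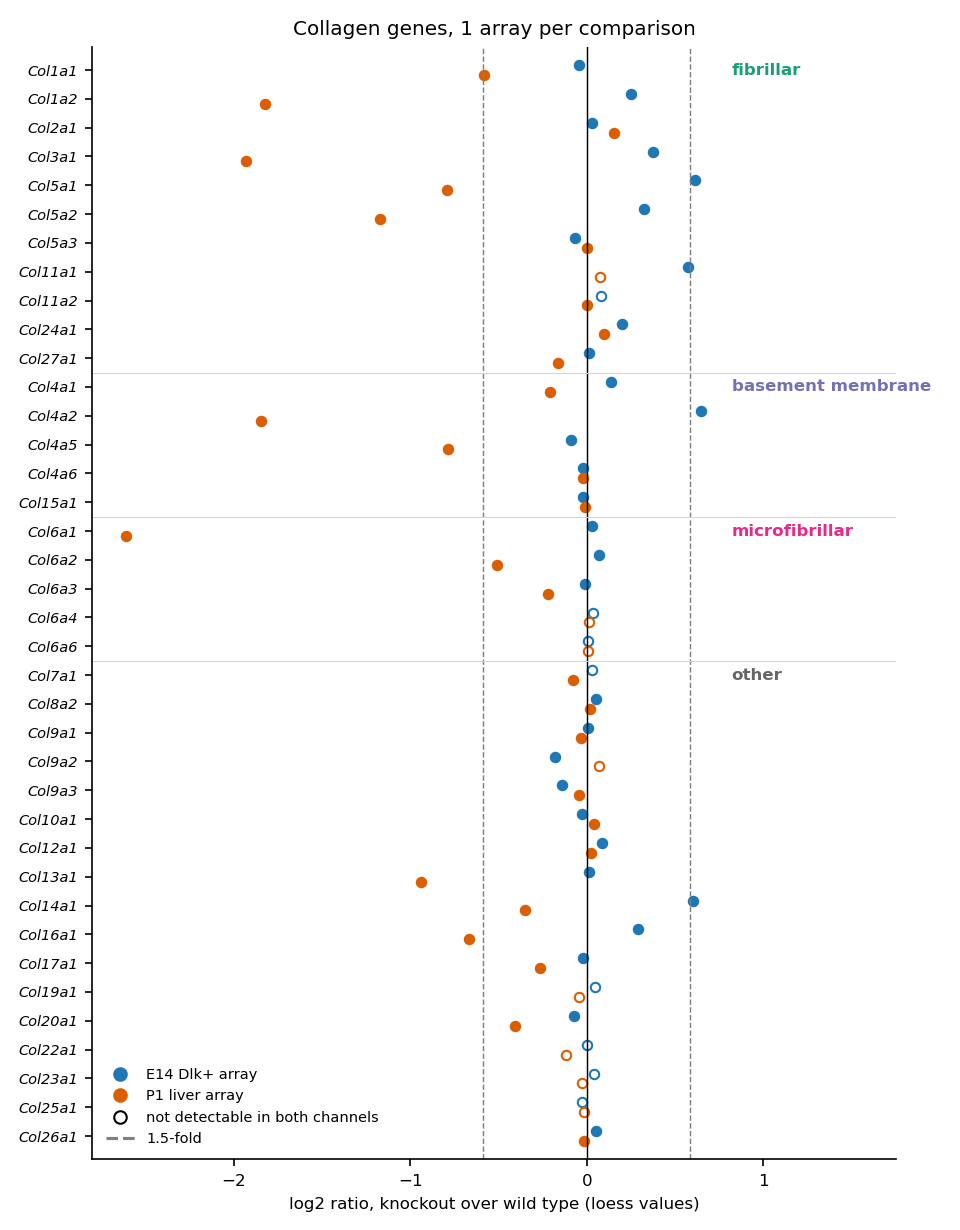
Log2 ratio of knockout over wild type (horizontal axis) for the collagen genes on the E14 Dlk+ array and the P1 liver array, 1 row per gene, grouped by class, with each value from a single array, open circles for genes not detectable in both channels and dashed lines at 1.5-fold. Col6a1, Col3a1, Col4a2 and Col1a2 lie lowest on the P1 liver array, between -2.61 and -1.82, while their E14 Dlk+ values lie between 0.03 and 0.65.

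Of the fibrillar genes, 10 of 11 were detectable in both channels on each array. Their median ratio was 0.23 on the E14 Dlk+ array, with 8 above 0 and 1 called higher (0.307% of all genes). On the P1 liver array it was -0.37, with 7 below 0 and 4 called lower (4.12% of all genes). Type I collagen, the main fibril of liver and most connective tissue, is a trimer of Col1a1 and Col1a2 chains. Col1a2 read 1332 for wild type and 3843 for knockout on the E14 Dlk+ array, a ratio of 0.25. In the P1 comparison it read 762 and 327, a ratio of -1.82, or 3.54-fold lower in the knockout. Its higher raw knockout signal in E14 Dlk+ cells says nothing of direction, since the channels do not share a scale.

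Col1a1 differed from its partner chain in how far it stood above the blanks. It read 233 and 534 on the E14 Dlk+ array, a ratio of -0.04. In P1 liver RNA it read 93.4 and 100, the latter only 1.15 times the threshold, with a ratio of -0.58, just short of 1.5-fold. The authors' deposited table gives -1.81 for Col1a1 there and -1.98 for Col1a2. The offset used in the loess values shrinks ratios of dim spots, and Col1a1 without it stood at -1.42. With the local background in normexp the P1 value of Col1a1 was -0.30, and with it subtracted -0.94.

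Type III collagen, which forms the reticular fibers of liver, is made of Col3a1 chains alone. Col3a1 read 3126 and 9837 on the E14 Dlk+ array, a ratio of 0.37. On the P1 liver array it read 1430 and 580, a ratio of -1.93, or 3.82-fold lower in the knockout. It was high above the threshold in every channel, from 6.67 times in the P1 knockout channel to 116 times in the E14 knockout channel. On the E14 Dlk+ array its ratio depended on the local background, which reached 2990 beside the wild-type signal of 3126: used in normexp, it gave 2.96.

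Type V collagen sits inside type I fibrils and helps set their diameter. Its chain Col5a1 read 617 and 2289 on the E14 Dlk+ array, a ratio of 0.61. In the P1 comparison it read 524 and 451, a ratio of -0.79. Col5a1 was thus called on both arrays after loess, higher in the knockout of the first and lower in that of the second. The first call was lost with the local background in normexp (0.47) or subtracted (0.42), and the second with median centring (-0.47).

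Col5a2 read 442 and 1332 on the E14 Dlk+ array, a ratio of 0.32, and 375 and 246 on the P1 liver array, a ratio of -1.17. It lies beside Col3a1 with no protein-coding gene between them, and both were at least 2-fold lower on the P1 liver array after loess. With the local background in normexp these P1 values were -0.76 for Col5a2 and -1.16 for Col3a1. The third chain, Col5a3, stayed near the threshold, at 45.3 and 86.6 on the first array and 64.2 and 103 on the second, with ratios of -0.07 and -0.00.

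The remaining fibrillar genes include those known from cartilage. Col11a1 read 63.0 and 204 on the E14 Dlk+ array, with a ratio of 0.57, which the authors' deposited table gives as 1.22. Its local background there was close to the signal, at 60.2 and 180. Used in normexp it gave a ratio of 0.12, and subtracted it gave 1.41. In P1 liver RNA only its knockout channel was detectable. Col2a1, the main cartilage collagen, read 57.6 and 103 on the P1 liver array, a ratio of 0.15, the highest of the 30. Of 10 cartilage markers 5 were detectable for wild type and 6 for knockout on each array. None was called, where 0.307% of all genes were called higher and 0.22% lower on the first, and 2.84% and 4.12% on the second. With so few genes, no call is near those shares. Their summed levels were 2538 and 2279 on the first and 2641 and 2859 on the second. By far the brightest was Matn4, at 1280 and 2683, then 1662 and 2862, so the sums rest largely on that gene. Acan, the main cartilage proteoglycan, was detectable in neither channel of either array.

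**Figure D2:**
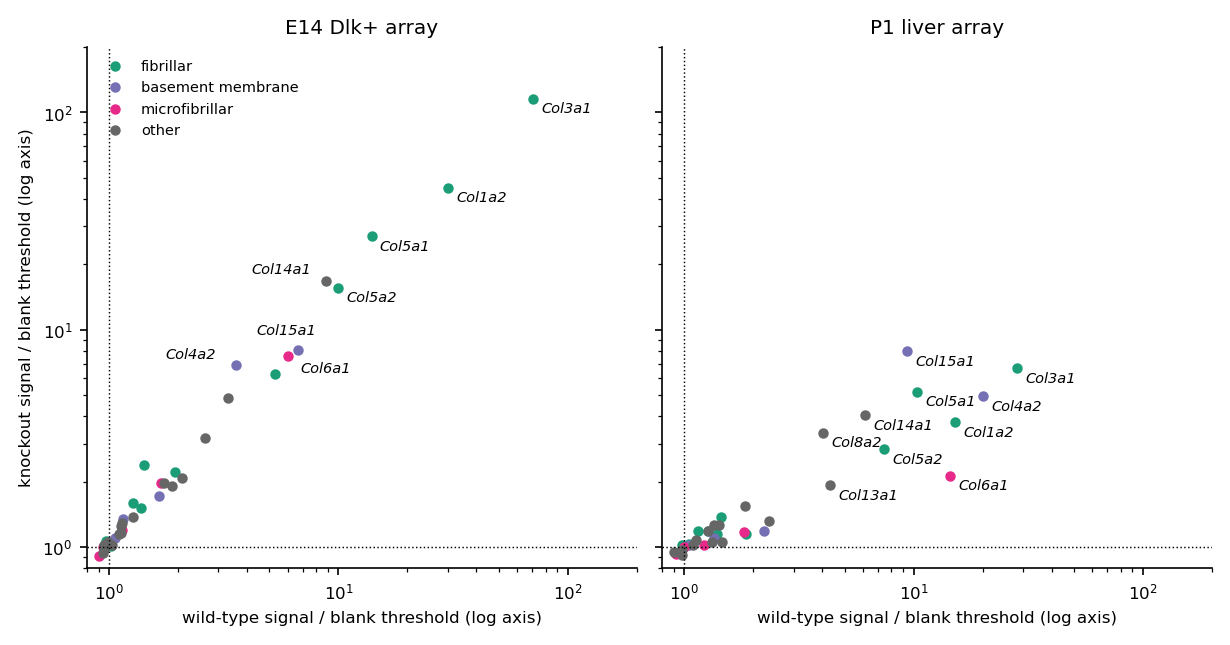
Signal of each collagen gene divided by the blank threshold of its channel, coloured by class, wild type on the horizontal and knockout on the vertical axis, both log axes, 1 point per gene, with dotted lines at the threshold. In E14 Dlk+ cells Col3a1 reaches 70.6 and 116 times the threshold, and on the P1 liver array 28.3 and 6.67 times.

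The basement membrane genes were all 5 detectable in both channels of both arrays. Col4a2, which joins Col4a1 in the common type IV trimer, read 159 and 584 on the E14 Dlk+ array. Its ratio there was 0.65, the highest of the 30. On the P1 liver array Col4a2 read 1015 and 432, a ratio of -1.85, or 3.60-fold lower in the knockout. It was thus called in opposite directions on the 2 arrays, although with the local background in normexp the E14 Dlk+ value was 0.55, short of the call.

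Col4a1, which shares its start region with Col4a2, was dim on its probe. It read 50.7 and 115 on the E14 Dlk+ array, a ratio of 0.14, and 68.2 and 96.2 on the P1 liver array, a ratio of -0.21. In the authors' deposited table these were 0.66 and -0.99, the same directions as Col4a2 at 0.76 and -1.91. With signals of 1.11 to 1.35 times the threshold, the size of the Col4a1 ratios could not be measured well.

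The chains Col4a5 and Col4a6 are neighbours on the X chromosome and join in a separate type IV network. Col4a5 read 73.1 and 146 on the E14 Dlk+ array, a ratio of -0.09, and 113 and 103 on the P1 liver array, a ratio of -0.78. Col4a6 read 47.0 and 93.6 on the first and 52.8 and 88.8 on the second, with a ratio of -0.02 on both. Only Col4a5 was called, and both were within 2.23 times the threshold. The Col4a5 value on the P1 liver array was -0.43 with the local background in normexp, short of the call, and -2.06 in the authors' deposited table.

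Col15a1, which bridges basement membranes and fibrils, is the only member with 2 probes. Its stronger probe read 546 and 1287 on the E14 Dlk+ array, a ratio of -0.03, and 896 and 1296 on the P1 liver array, a ratio of -0.08. The weaker read 44.6 and 89.2, then 51.2 and 91.2, with ratios of -0.01 and 0.07. Averaged, Col15a1 stood at -0.02 and -0.01, so a collagen well above threshold on the P1 liver array lay close to 0.

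Type VI microfibrils are built from Col6a1, Col6a2 and a longer chain. Col6a1 read 267 and 646 on the E14 Dlk+ array, a ratio of 0.03. In the P1 comparison it read 727 and 185, a ratio of -2.61, or 6.11-fold lower in the knockout. That was the lowest collagen ratio on either array, and in the authors' deposited table it was -3.16.

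Its partner chains were dimmer on their probes. Col6a2, the neighbour of Col6a1 with no protein-coding gene between them, read 74.4 and 168 on the E14 Dlk+ array, a ratio of 0.07, and 91.7 and 103 on the P1 liver array, a ratio of -0.51. Col6a3 read 50.5 and 102 on the first, a ratio of -0.01, and 61.6 and 89.3 on the second, a ratio of -0.22. Neither was called after loess, while the authors' deposited table gives -1.56 and -1.44 on the P1 liver array. Of the chains that can take the place of Col6a3, Col6a4 was detectable in the knockout channel alone on both arrays, at 85.5 and 87.5, and Col6a6 in no channel.

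Of the 17 other collagens, 12 were detectable in both channels on each array. Their medians were 0.01 on the E14 Dlk+ array, with 1 called higher (0.307% of all genes), and -0.06 on the P1 liver array, with 2 called lower (4.12%). Col14a1, a chain that associates with fibril surfaces, read 392 and 1436 on the E14 Dlk+ array, a ratio of 0.60. In P1 liver RNA it read 309 and 351, a ratio of -0.35. Col14a1 was thus called on the first array alone, and that call was lost with the local background in normexp (0.25) or subtracted (0.18). The difference between arrays was not tested.

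Col16a1, also a fibril-associated chain, read 145 and 412 on the E14 Dlk+ array, a ratio of 0.29, and 118 and 115 on the P1 liver array, a ratio of -0.66. The authors' deposited table gives the latter as -1.56. Col13a1, a transmembrane collagen, read 77.2 and 167 on the first, a ratio of 0.01, and 219 and 168 on the second, a ratio of -0.94. The direction for Col13a1 on the P1 liver array turned with the local background, which was 206 beside the wild-type signal of 219. Used in normexp it gave 0.25, and subtracted it gave 0.96. The remaining 9 detectable on the P1 liver array lay between -0.40 (Col20a1) and 0.04 (Col10a1).

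Some members were too dim to compare. On the E14 Dlk+ array Col6a6, Col22a1 and Col25a1 were detectable in neither channel, and on the P1 liver array Col6a6, Col9a2, Col19a1, Col22a1, Col23a1 and Col25a1. Detectable in the knockout channel alone were Col6a4, Col7a1, Col11a2, Col19a1 and Col23a1 on the first and Col6a4 and Col11a1 on the second. Of all 16390 genes, 12771 were detectable for wild type, 13909 for knockout and 12705 in both channels on the first array. On the second these were 13310, 13252 and 12715. Detection for knockout alone was thus common over all genes on the first array. Set against the lowest level above background, the lower bound on their fold was largest for Col11a2, at least 1.05-fold higher in the knockout. That bound, log2 0.08, is smaller than the SD of 0.12 between probes of a gene. Col6a4 on the E14 Dlk+ array gave no bound. These bounds come from channel values and are open to dye bias.

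Restricted to members with both signals at 2 times the threshold or more, the direction on each array was the same and the sizes were larger. In E14 Dlk+ cells 12 members passed, 9 of them above 0, with a median of 0.27 against 0.02 for all 6477 such genes. On the P1 liver array 9 passed, 8 of them below 0, with a median of -1.17 against 0.03 for all 6195. Those on the P1 liver array were Col1a2, Col3a1, Col4a2, Col5a1, Col5a2, Col6a1, Col8a2, Col14a1 and Col15a1. Col8a2, a short-chain network collagen, was the 1 above 0, reading 203 and 293 with a ratio of 0.02. This limit selects on the same signals as the ratio, so its counts are a description.

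**Figure D3:**
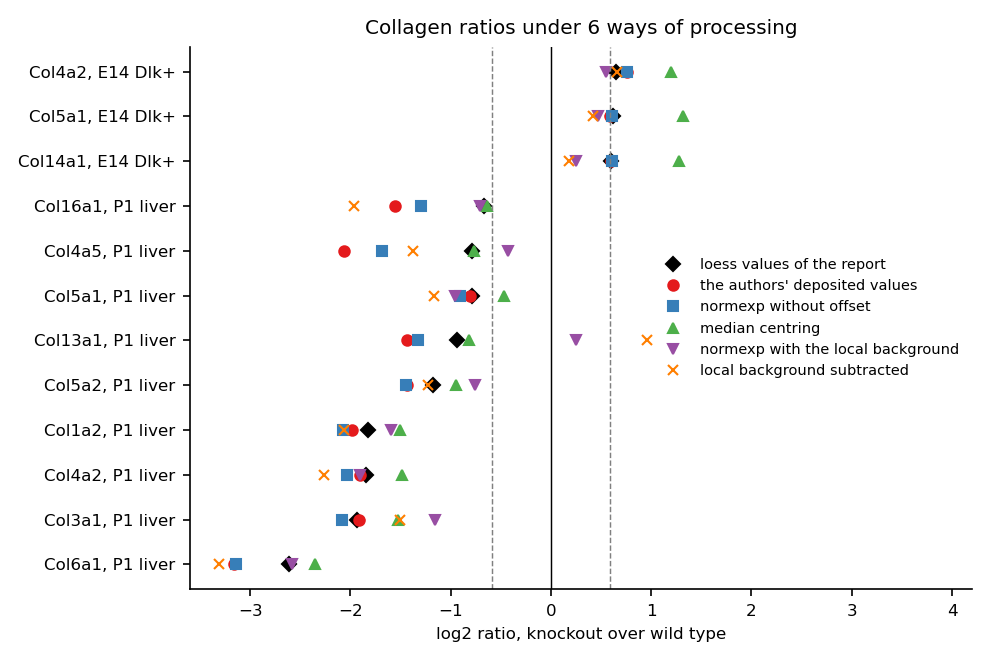
Log2 ratio of knockout over wild type (horizontal axis) of each called collagen gene and array (vertical axis) under 6 ways of processing the signals, 1 marker shape per way, with dashed lines at 1.5-fold. Col6a1 lies lowest under each, from -3.32 to -2.35, and Col13a1 crosses 0 when the local background is used, at 0.25 and 0.96.

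The 2 arrays differed in the collagen ratios they gave. Of 28 members detectable in both channels of both arrays, 23 had a lower ratio on the P1 liver array, with a median difference of -0.29. Over all 12005 such genes 50.7% were lower and the median difference was -0.003. Both arrays had the knockout in the same dye, so a probe's dye effect that is equal on both drops out of this difference. Source (sorted cells or whole liver), stage and the lung RNA differ between the arrays together and cannot be told apart.

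The channels behind those ratios did not move alike between arrays. After normalisation of both arrays to a common distribution of average intensity, which does not otherwise tie them together, the wild-type level of Col4a2 was 2.40 log2 units higher on the P1 liver array and its knockout level -0.09 units apart. For Col6a1 the wild-type level was 1.15 higher and the knockout difference was -1.49. For Col3a1 the differences were -1.40 for wild type and -3.70 for knockout, and for Col1a2 they were -1.15 and -3.23. The Col4a2 ratio was thus low on the P1 liver array with a high wild-type level, while Col3a1 and Col1a2 were lower in both channels and more so in the knockout. Over all genes the median differences were -0.06 and -0.05.

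The genes that act on collagen were read from a list of 64 in 7 roles, of which 61 were on the array. On the E14 Dlk+ array 54 were detectable in both channels, with a median of 0.05, and 3 were called higher (0.307% of all genes) and 1 lower (0.22%). In the P1 comparison 50 were, with a median of -0.08, and none was called higher (2.84% of all genes) and 9 lower (4.12%). The list holds Mmp14 itself, which is the 1 called lower on the first and 1 of the 9 on the second.

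Among the enzymes that hydroxylate and glycosylate procollagen, P3h2, a prolyl 3-hydroxylase, had a ratio of 0.65 on the E14 Dlk+ array, followed by P4ha2 at 0.34 and P3h3 at 0.33. With the local background in normexp P3h2 was at 0.41, short of the call. In P1 liver RNA P4hb, the disulfide isomerase that is also a subunit of prolyl 4-hydroxylase, read 8544 and 6462, a ratio of -1.13. Plod3, a lysyl hydroxylase, stood at -0.40 there and P4ha2 at 0.32. Of the 13 of this role detectable in both channels on that array, 6 were above 0 and 7 below. Median centring put P4hb at -0.56, short of the call. The 4 genes of folding and export that were measured, Mia2 and Mia3 among them, lay between -0.11 and -0.01 on the first array and between -0.16 and 0.12 on the second. The enhancers of C-propeptide removal, Pcolce and Pcolce2, were at 0.42 and -0.15 on the E14 Dlk+ array and both called lower on the P1 liver array, at -0.74 and -1.14. The Pcolce call was lost with the local background in normexp (-0.09) or subtracted (-0.33).

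Among cross-linking enzymes Loxl1 read 202 and 113 on the P1 liver array, a ratio of -1.48, against 0.06 on the E14 Dlk+ array. Loxl2 stood at 0.23 and Loxl3 at -0.16 on the P1 liver array. Of the 4 detectable in both channels there, 2 were above 0 and 2 below, with a median of -0.06. Partners of fibril assembly had the highest median of the 7 roles on the E14 Dlk+ array, 0.43 over 8 genes. There the small proteoglycans Dcn and Lum, which bind fibrils, stood at 0.86 and 0.66 and Bgn at 0.57. On the P1 liver array Bgn was at -1.36 and Sparc, a collagen-binding glycoprotein, at -1.21, while Dcn was at -0.14 and Lum at 0.11. Ogn, another small proteoglycan, stood at -0.53 there after loess and at -2.83 in the authors' deposited table. The Lum call on the E14 Dlk+ array was lost with the local background in normexp (0.55) or subtracted (0.51).

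Collagen receptors gave few values to compare. Of the 8 measured, 6 passed detection for wild type and knockout in E14 Dlk+ cells, and 5 in P1 liver RNA. None of these was called, and with so few genes no call is near the shares of all genes. Those shares were 0.307% higher and 0.22% lower, then 2.84% and 4.12%. Itgb1, the shared beta chain of collagen-binding integrins, lay farthest from 0 on the first array at 0.38. The receptor Ddr2 read 63.1 and 84.5 in P1 liver RNA, the latter below the threshold, so its ratio was not counted. Among genes of cleavage and uptake on the P1 liver array, Mmp2, a gelatinase that MMP-14 activates, stood at -1.08 and Timp3, a matrix-bound inhibitor of metalloproteinases, at -1.38. In E14 Dlk+ cells these were at 0.09 and 0.04. With the local background in normexp the P1 value of Mmp2 was -0.15, and its call was lost.

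**Figure D4:**
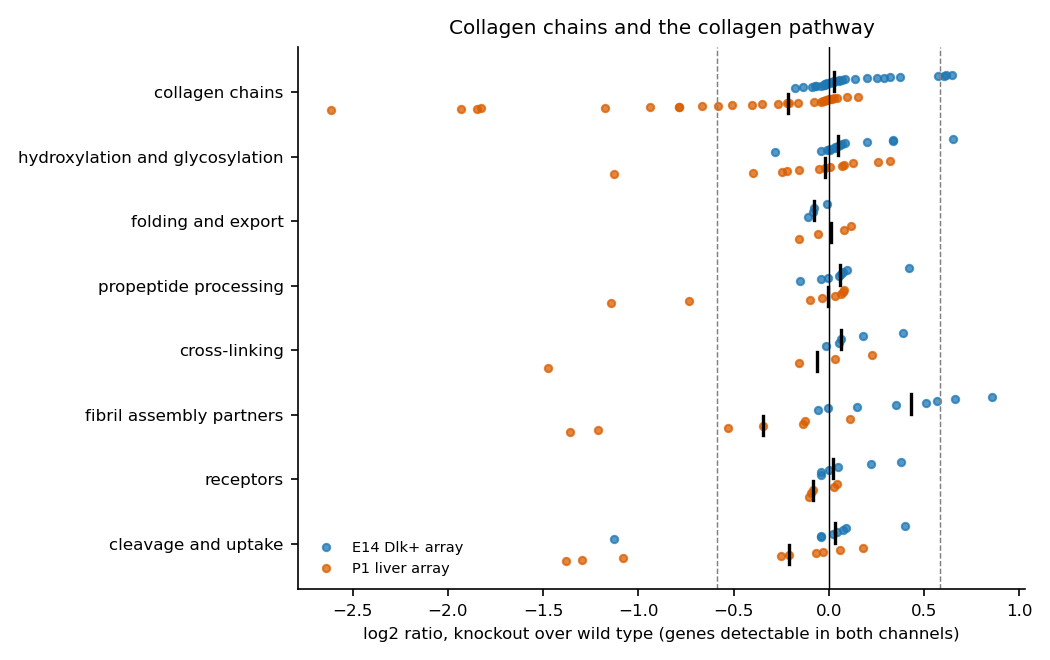
Log2 ratio of knockout over wild type (horizontal axis) for the collagen chains and the genes that act on collagen, by role (vertical axis), on both arrays, 1 point per gene detectable in both channels, with black bars at each median and dashed lines at 1.5-fold. All points past 1.5-fold on the P1 liver array are below 0, and Dcn is highest on the E14 Dlk+ array at 0.86.

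Markers of some other cell types also differed between the channels. Of stellate cell and fibroblast markers 11 of 12 were above 0 on the E14 Dlk+ array, with a median of 0.36, 2 called higher and summed levels of 3028 for wild type and 4196 for knockout. In the P1 comparison 3 of 13 were above 0, with a median of -0.10, 3 called lower and sums of 2077 and 1359. Those called lower were Acta2 (-2.11), Dpt (-1.65) and Tagln (-1.54). The stellate and fibroblast markers above 0 there were Lhx2 (0.26), Hand2 (0.16) and Nt5e (0.08), while Des, Reln and Lrat lay between -0.14 and -0.05. Endothelial markers had a median of -0.03 on the first array, with sums of 1648 and 1654, and of -0.59 on the second, with 5 of 10 called lower and sums of 6396 and 4067. Mesothelial markers had medians of -0.17 and -0.20, with 2 called lower on each array. Beside these counts, 0.307% of all genes were called higher and 0.22% lower on the E14 Dlk+ array, and 4.12% lower on the P1 liver array. The part of these cell types in the collagen ratios was not tested.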

How the data were processed

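Per the file headers, the scanner output that was deposited gives the intensity of every spot in each channel and its local background, neither of them normalised. The authors' deposited values are log2 ratios, knockout over wild type. Across probes they followed the log2 channel ratio of the scanner values after subtraction of the blank mean (Pearson correlation 1). Their column medians were 7.21e-07 and -2.74e-05, so they are centred on the array median. Their direction and centring are thus known, while a correlation alone does not fix the scale. RNA was amplified and coupled to the dyes with an amino allyl kit, per the labels' protocols. Scanner software and genome build are not given in the sources used here.

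Intensities were corrected with normexp and an offset of 50 in limma 3.58.1 under R 4.3.3, without the local background, which followed the spot signal (Spearman 0.900 to 0.967 over the 4 channels). Log2 ratios were normalised by loess within each array with control spots at weight 0, and spots of a probe and then probes of a gene were averaged. The offset shrinks ratios of dim genes. Blank spots were trimmed by 5 percent at each end for the threshold. The steps were tested on simulated data. Probe names came from the platform annotation: 16631 of 23473 probes had 1 symbol, none had several and 6842 were unnamed. Symbols were updated through the RefSeq table of GRCm38.p6, 3 collagens among them. The 4 probes with a quality flag on the E14 Dlk+ array were left out.

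Text values are given for collagens called on at least 1 array, their partner chains, and types I, III, IV, V, VI and XV, up to 3 genes per role of the pathway list with the largest absolute ratio on each array (some given on both), and the 13 lists of cell type markers. The members and lists were chosen with earlier results of these data known. The number of arrays, 1 per comparison, limits the precision of all values. The alternatives run were 9 and covered background, offset, centring, the authors' values, filters, probe choice and the removal of whole-number readings.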

Additional observations from a re-analysis of the deposited data

Results flagged for a closer look

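Col4a2 stood out because its ratio after loess was called higher in the knockout on the E14 Dlk+ array and lower on the P1 liver array. The ratio on the P1 liver array minus that on the E14 Dlk+ array was -2.49 on the log2 scale. Col5a1 did the same, with a difference of -1.40. With 1 array on each side, neither difference was tested. Some of these calls were lost under other processing, as given beside each gene.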

How the results depend on the processing

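The single array per comparison limits the precision, and dim probes are also limited by signal over background. No paired analysis was possible because each comparison has a single array. The E14 Dlk+ collagen median of 0.03 became 0.19 with the local background subtracted, 0.20 with median centring and 0.27 at 2 times the threshold. Its 3 higher genes became 6 with subtraction (14.2% of all genes), 9 with median centring (24.8%) and 6 in the authors' deposited table (5.38%). Its 0 lower became 1 with subtraction (7.74% of all genes). With the local background in normexp 2 were higher (3.83% of all genes), Col3a1 and Col5a2, and none of the 3. The P1 median of -0.21 became -0.48 with subtraction, -0.59 without the offset, -0.76 in the authors' deposited table, -1.17 at 2 times the threshold and -0.06 with no filter on dim genes. Its 9 lower genes became 14 with subtraction (14.8% of all genes), 15 without the offset (9.37%) and 16 in the authors' deposited table (12.2%). They became 7 with the local background in normexp (3.59%), 8 with median centring (2.52%) and 6 at 2 times the threshold (5.33%). Its 0 higher became 2 with subtraction (18.4%) and 1 in the authors' deposited table (11.9%). Col13a1 on the P1 liver array turned to 0.25 and 0.96 when the local background was used in normexp or subtracted. Of the 78 alternative values of the 9 called P1 genes, 76 kept their direction and 74 were still 1.5-fold. Of the 27 values of the 3 called E14 Dlk+ genes, 27 kept it and 22 were still 1.5-fold. The filters, the probe choice and the removal of whole-number readings cannot change the ratio of a gene with a single probe. Every called gene has a single probe, so both counts include values fixed in advance and do not measure how stable the ratios are. With the local background in normexp Col4a2, Col5a1 and Col14a1 stood at 0.55, 0.47 and 0.25.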

Other observations

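The remaining marker lists gave these medians on the E14 Dlk+ and P1 liver arrays: -0.12 and 0.11 for hepatoblasts and hepatocytes, -0.04 and -0.09 for bile duct cells, -0.00 and -0.59 for erythroid cells, -0.04 and -0.15 for macrophages, -0.01 for lung epithelium on the first, -0.02 and 0.08 for cartilage, -0.09 and 0.02 for bone, -0.00 and -0.01 for skeletal muscle, -0.03 and 0.02 for heart muscle, and -0.01 and 0.02 for skin. Of the 11 hepatoblast and hepatocyte markers, 4 were called lower on the E14 Dlk+ array (0.22% of all genes). These were Ttr (-1.36), Alb (-1.31), Afp (-1.26) and Apoa1 (-0.76), all with possible ceiling readings. On the P1 liver array Ttr (-1.65), Alb (-1.12) and Apoa1 (-1.05), again with such readings, were called lower (4.12%). Tat (1.73) and Cps1 (1.06) were called higher there (2.84%). Of the 5 erythroid markers 3 were called lower on the P1 liver array, where 4.12% of all genes were. They were Klf1 (-1.10), Slc4a1 (-0.75) and Epor (-0.59). With the local background in normexp these stood at -0.57, -0.05 and -0.56, short of the call. Epcam of the bile duct list was also called lower on the P1 liver array (-1.23), and Myl7 of the heart muscle list on the E14 Dlk+ array (-0.83).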
